A study of Homo sapiens with 9 samples.

Results

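miR-23, miR-27 and miR-24 are made from short hairpins that sit side by side in 2 paralogous clusters, miR-23a/27a/24-2 and miR-23b/27b/24-1. Their behaviour was followed in miTRAP, an affinity purification in which a bait RNA carrying MS2 loops, held on a resin, retains miRNAs from a cell lysate. The 9 mature miRNAs of these clusters that are described here were chosen by name from the 2652 names of the count table, with the reads of several loci of one name summed, and all 9 passed the filter on low counts. The lysates came from untreated, wild-type ES-2 cells, an established line derived from an ovarian cancer. There were 9 small RNA libraries, 3 replicates in each of 3 groups: RNA of the lysate before trapping (input), RNA retained by MS2 control RNA without a 3'UTR (MS2 control), and RNA retained by a bait holding the PD-L1 3'UTR (PD-L1 bait). The study used a much larger amount of the PD-L1 bait than of the MS2 control RNA, so the sequence and the amount of the bait cannot be told apart between the trapped groups. The study states biological triplicates for its experiments in general, but the labels do not say what separates these replicates, so p-values measure the spread between these libraries.

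Each hairpin can give 2 mature miRNAs, one from its 5' arm (5p) and one from its 3' arm (3p). The strand that is loaded into an Argonaute protein guides it to target RNAs, mainly by pairing of the seed, bases 2 to 8 of the miRNA, with the target's 3'UTR. A partner strand is usually degraded and is found at lower levels. Hairpins of one cluster are cut from a shared transcript, and their mature products can still differ in abundance through processing, loading and stability. In other settings miR-23a and miR-23b are known to repress glutaminase, miR-27 to repress the adipogenic regulator PPARG, and miR-24 to repress cell cycle genes such as E2F2.

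The 9 mature sequences are shown because the comparisons turn on which seed and which arm a miRNA carries. They were taken from RefSeq (GRCh38.p14), which held all 9, and the seed is in capitals. The prefix hsa, for human, is left out of the names below.
hsa-miR-23a-3p: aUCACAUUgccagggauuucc
hsa-miR-23b-3p: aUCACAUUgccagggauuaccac
hsa-miR-27a-3p: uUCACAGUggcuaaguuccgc
hsa-miR-27b-3p: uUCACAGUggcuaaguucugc
hsa-miR-24-3p: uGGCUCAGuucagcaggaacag
hsa-miR-23a-5p: gGGGUUCCuggggaugggauuu
hsa-miR-27a-5p: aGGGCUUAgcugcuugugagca
hsa-miR-27b-5p: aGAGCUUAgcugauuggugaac
hsa-miR-24-2-5p: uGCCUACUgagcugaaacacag

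The 5 3p arms carry 3 seeds, and the seeds of miR-23 and miR-27 are alike. Counted from the 5' end, miR-23a-3p and miR-27a-3p differ within the seed by U7G alone, and share the other 6 seed bases. Paralogs of one seed are almost the same molecule. miR-23a-3p and miR-23b-3p differ by U19A and in length, with 21 and 23 bases, and miR-27a-3p and miR-27b-3p differ by C19U. Reads that end before base 19 can therefore not be assigned to one paralog.

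On GRCh38, the build named in the submitters' processing notes, the miR-23a cluster lies at chr19:13836287-13836659 on the reverse strand. Its 3 hairpins fall within the long noncoding RNA gene MIR23AHG, at chr19:13834516-13842918. The miR-23b cluster lies at chr9:95085208-95086088 on the forward strand, within the protein-coding gene AOPEP, at chr9:94726699-95150224. In the annotation used for exons (GENCODE on GRCh37), MIR23A and MIR27A were exonic in the 1 MIR23AHG transcript that spans them. MIR23B and MIR27B were intronic in each of the 7 AOPEP transcripts that span them.

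miR-24-3p has the same sequence in both clusters and is listed at 1 locus on each of the 2 chromosomes. The chromosome 19 locus held 49.2% to 50.5% of its reads in the 9 libraries, and the 95% Wilson interval of this share, which covers counting error only, included an even split in each library. The split of miR-24-3p between the clusters is thus not measured, and its sum is used for both. Its 5p arms differ in sequence and can be told apart. miR-24-2-5p, of the miR-23a cluster, had 265 to 479 counts in the input libraries, against 3, 3 and 4 for miR-24-1-5p. miR-3074, on the opposite strand of the miR-24-1 hairpin, had at most 17 counts in any library, and the strand setting of the counting was not given in the sources used here.

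Library totals were 3794799 to 5983577 counts for the input, 1156261 to 2236535 for the MS2 control and 672824 to 1237652 for the PD-L1 bait. The 9 miRNAs together made up 1.77% ± 0.167 (SD, n = 3) of all reads in the input, 2.32% ± 0.105 in the MS2 control and 2.25% ± 0.155 on the PD-L1 bait. Abundance is given below as CPM (counts scaled to the size of the library) after TMM scaling, and calls rest on edgeR's quasi-likelihood test with a Benjamini-Hochberg adjusted p under 0.05 over the 408 miRNAs tested. With library totals in place of TMM, the median log2 fold change of all 408 moved from 0.04 to 0.60 for the PD-L1 bait against the input and from 0.02 to 0.65 for the MS2 control against the input. It moved from 0.02 to -0.04 for the PD-L1 bait against the MS2 control, so comparisons of the 2 baits hardly depend on the scaling.

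The lysate showed both clusters unequally. miR-27a-3p was the most abundant of the 9 in the input, with 9993, 9433 and 11605 CPM in replicates 1, 2 and 3. It was followed by miR-23a-3p with 4011, 4417 and 4875 CPM, miR-24-3p with 3673, 3428 and 4063 CPM and miR-27b-3p with 2575, 2929 and 3336 CPM. The ranges of miR-23a-3p and miR-24-3p overlapped, so their order does not exceed their spread. miR-23b-3p stood at 353, 373 and 416 CPM. The paralogs of the miR-23a cluster thus took 92.1% ± 0.155 (SD, n = 3) of the miR-23 3p reads and 77.8% ± 1.61 of the miR-27 3p reads. Among the 5p arms, miR-27a-5p reached 938, 1464 and 1922 CPM and miR-24-2-5p reached 126, 89.3 and 103 CPM. miR-23a-5p and miR-27b-5p were close to the limit of detection, with 10, 8 and 13 and with 1, 3 and 2 counts.

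**Figure D1:**
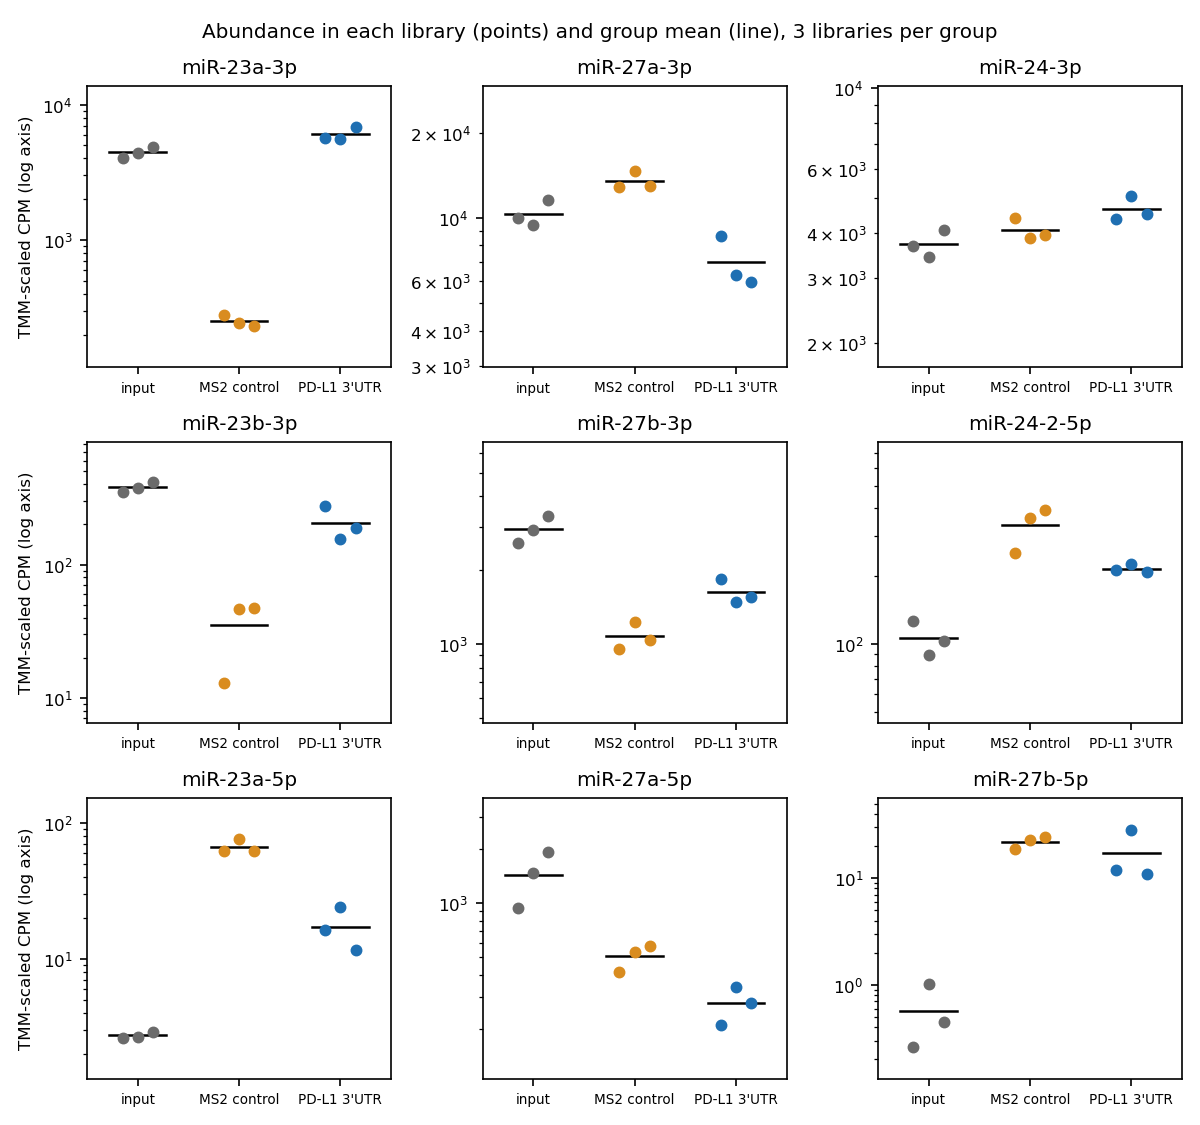
TMM-scaled CPM on a log axis for each of the 9 miRNAs, with 1 point per library, a line at the group mean and 3 libraries per group. miR-23a-3p is between 4011 and 6850 CPM in the input and PD-L1 bait libraries and between 232 and 281 CPM in the MS2 control, whereas miR-24-3p stays between 3428 and 5067 CPM in all 9 libraries.

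Setting the MS2 control beside the input describes what loops and resin retain when no 3'UTR is present. The miR-23 seed was far lower in this background eluate than in the lysate, while miR-24-3p was called higher only with library totals and miR-27a-3p was at the edge of the threshold. The 5p arms of miR-23a and miR-27b rose from very few counts and were still among the least abundant of the 9. In the MS2 control, 3 of the 9 were called higher and 4 lower, against 32.8% higher and 37% lower of all 408 tested. Their median log2 fold change was 0.13, against 0.02 for all 408.

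miR-23a-3p had 281, 243 and 232 CPM in the MS2 control. Each of these libraries was far below each input library. Its log2 fold change was -4.14 ± 0.15 (SE), a 17.6-fold lower level (edgeR adjusted p of 2.85e-08), and this was the 11th lowest value among the 408. miR-23b-3p had 12.9, 46.0 and 46.9 CPM, with a log2 fold change of -3.42 (adjusted p = 4.67e-05, SE = 0.42), the 21st lowest. The value of replicate 1 rested on 20 counts, against 116 and 62 in replicates 2 and 3. Summing both paralogs removes the uncertain split of their reads. The sum of miR-23a-3p and miR-23b-3p averaged 4795 ± 462 CPM (SD, n = 3) before trapping and 286 ± 7.54 CPM in the MS2 control, and this sum changed by -4.07 ± 0.14 on the log2 scale (SE, with an adjusted p of 1.80e-08).

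miR-27a-3p had 12817, 14598 and 12916 CPM in the MS2 control. All 3 libraries lay above the input, but its log2 fold change of 0.38 (edgeR adjusted p = 0.0507, SE = 0.16) missed the threshold. It was called higher in 6 of 17 alternatives, with 1.01 under library totals (adjusted p of 2.04e-04) and 0.35 to 0.45 in the other 5, which were DESeq2's size factors, DESeq2, a minimum mean of 10 CPM, separate loci and the 2 compared groups alone. miR-24-3p had 4403, 3885 and 3948 CPM, which overlapped the input, with a log2 fold change of 0.13 (adjusted p = 0.338, SE = 0.12) that became 0.77 with library totals (adjusted p of 2.70e-04). miR-27b-3p differed from its paralog. It fell to 954, 1229 and 1043 CPM, with no overlap with the input and a log2 fold change of -1.45 (adjusted p = 1.58e-05, SE = 0.16).

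Of the 4 5p arms, 3 went the other way. miR-23a-5p had 62.7, 76.5 and 62 CPM in the MS2 control, against 2.63, 2.70 and 2.93 CPM in the input, a fitted log2 fold change of 4.58 (SE = 0.33). It rested on 372 counts against 31 in all, a ratio of 24.9 after scaling with a 95% counting interval from 17.3 to 37.2. miR-27b-5p rested on 119 counts in the MS2 control and 6 in the input in all. This is a ratio of 41.2 after scaling, with a 95% interval from 18.4 to 115 that covers counting error only. Both miR-23a-5p and miR-27b-5p passed the filter through the trapped libraries, where they are high. miR-24-2-5p rose to 252, 361 and 390 CPM, by 1.65 ± 0.21 on the log2 scale (SE, with an edgeR adjusted p of 5.38e-05). The exception was miR-27a-5p, the one abundant 5p arm of the lysate, which fell to 414, 537 and 581 CPM with a log2 fold change of -1.50 (adjusted p = 6.46e-04, SE = 0.27). For miR-24-2-5p and miR-27a-5p, no input library overlapped an MS2 control library. The share of all tested miRNAs without such overlap was not counted.

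Setting the PD-L1 bait beside the MS2 control compares baits that differ both in the 3'UTR and in the amount used. Both miR-23 paralogs were much higher on the PD-L1 bait, miR-27b-3p was modestly higher, and miR-27a-3p was lower. On the PD-L1 bait, 3 of the 9 were called higher and 4 lower, against 31.4% and 28.7% of all 408. Their median log2 fold change was -0.42, against 0.02 for all 408. This comparison shares the MS2 control libraries with the previous one, so a low level in these libraries enters both.

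miR-23a-3p reached 5642, 5588 and 6850 CPM on the PD-L1 bait. Its log2 fold change over the MS2 control was 4.58 (edgeR adjusted p = 1.88e-09, SE = 0.16), a 23.9-fold higher level and the 20th highest value of the 408. miR-23b-3p reached 275, 154 and 189 CPM, with a log2 fold change of 2.54 (adjusted p = 3.24e-04, SE = 0.41). As a sum, the miR-23 3p arms averaged 6291 ± 761 CPM (SD, n = 3) and changed by 4.46 ± 0.15 on the log2 scale (SE, with an adjusted p of 1.60e-09). No PD-L1 bait library overlapped an MS2 control library for either paralog. The share of all tested miRNAs without overlap here was not counted. The log2 fold change of miR-23a-3p ranged from 4.45 to 4.66 when each of the 9 libraries was left out in turn.

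miR-27a-3p, cut from the hairpin next to that of miR-23a, had 8646, 6270 and 5954 CPM on the PD-L1 bait, all below the MS2 control. Its log2 fold change was -0.95 (edgeR adjusted p = 3.84e-04, SE = 0.16). For miR-27b-3p the 3 values were 1835, 1489 and 1562 CPM, above each MS2 control library, with a log2 fold change of 0.60 (adjusted p = 0.00606, SE = 0.15). As counted, the paralogs of the miR-27 seed therefore moved in opposite directions between the baits. Their sum followed the abundant miR-27a-3p, with 8657 CPM ± 1637 (SD, n = 3) against 14454 CPM ± 1152 and a log2 fold change of -0.74 (edgeR adjusted p = 0.00142, SE = 0.15).

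miR-24-3p had 4370, 5067 and 4523 CPM on the PD-L1 bait, overlapping the MS2 control, and a log2 fold change of 0.19 (edgeR adjusted p = 0.194, SE = 0.12). The 5p arms were lower than in the MS2 control or not distinguishable from it. miR-23a-5p had 16.3, 24.1 and 11.6 CPM, with a log2 fold change of -1.99 (adjusted p = 1.93e-04, SE = 0.30), opposite to the 3p arm of its own hairpin. miR-27a-5p had 211, 343 and 278 CPM and a log2 fold change of -0.88 (adjusted p = 0.0159, SE = 0.27), a call lost without MS2 control replicate 2 or PD-L1 bait replicate 1 (adjusted p of 0.0520 and 0.0560). miR-24-2-5p had 212, 225 and 208 CPM and a log2 fold change of -0.64 (adjusted p = 0.0193, SE = 0.20). This call was lost in 4 of the 9 fits that left out 1 library, those without MS2 control replicate 2 or 3 or PD-L1 bait replicate 1 or 3, where the adjusted p rose to at most 0.0951. Without a filter on low counts the call was also lost (edgeR adjusted p of 0.0734). For miR-27b-5p the values were 12, 28.2 and 10.9 CPM, on both sides of the MS2 control range, and the log2 fold change was -0.42 (adjusted p = 0.437, SE = 0.45).

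**Figure D2:**
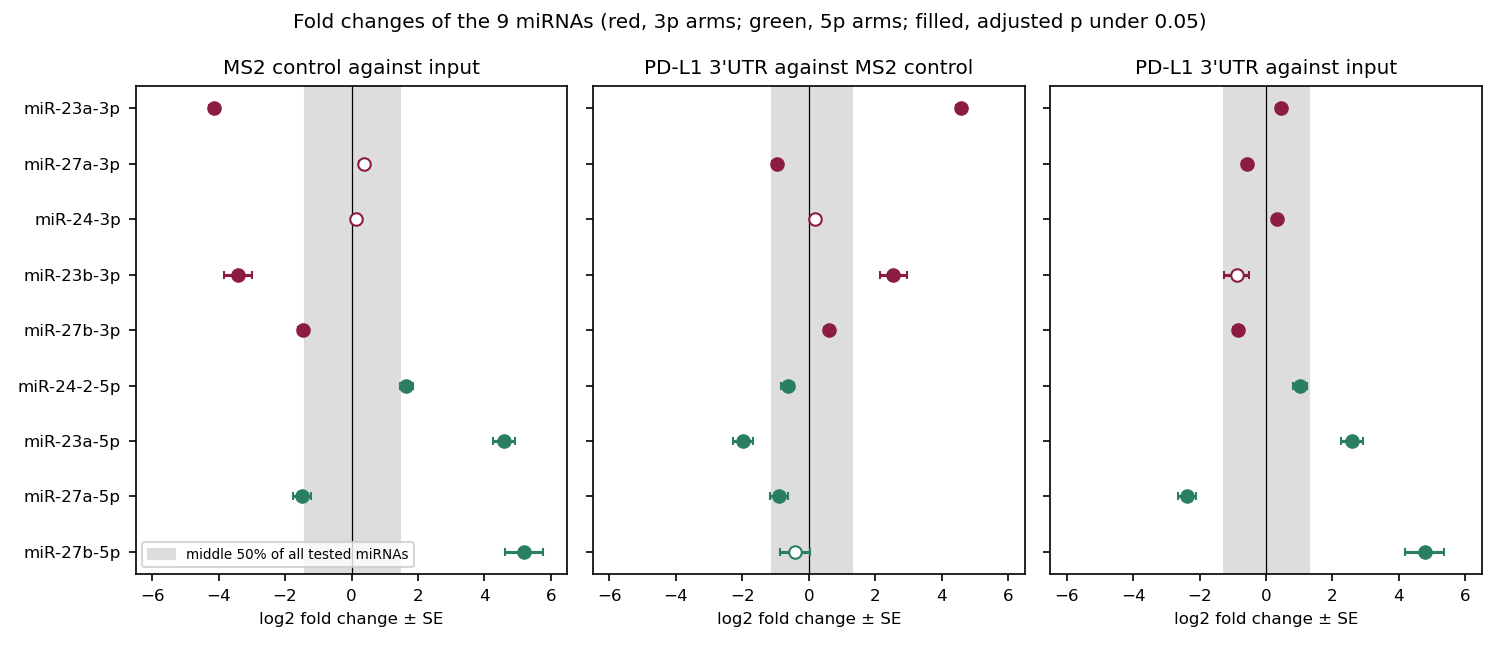
Log2 fold change with SE for each of the 9 miRNAs in the 3 comparisons, with 3p arms in red, 5p arms in green, filled points past the adjusted threshold and a grey band from the lower to the upper quartile of all 408 miRNAs tested. miR-23a-3p lies at -4.14 in the MS2 control against the input and at 4.58 on the PD-L1 bait against the MS2 control, comparisons that share the MS2 control libraries, and at 0.44 on the PD-L1 bait against the input.

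Against the input, the miR-23 paralogs and miR-27b-3p lay closer to the lysate on the PD-L1 bait than in the MS2 control. For miR-27a-3p the order depended on the scaling. Its log2 fold changes were -0.57 on the PD-L1 bait and 0.38 in the MS2 control with TMM, and 0.00 and 1.01 with library totals. Those of miR-24-3p were 0.32 and 0.13 with TMM, and 0.89 and 0.77 with library totals. On the PD-L1 bait against the input with TMM, 5 of the 9 were called higher and 3 lower, against 34.1% and 32.4% of all 408. Their median log2 fold change was 0.32, against 0.04 for all 408. Those called higher included miR-23a-5p and miR-27b-5p, which passed the filter through the trapped libraries, where they are high. Among the 3p arms, log2 fold changes ranged only from -0.88 to 0.44, and several calls were fragile. miR-23a-3p had 0.44 (edgeR adjusted p = 0.0145, SE = 0.14), a call that was lost without any 1 input library, MS2 control replicate 3 or PD-L1 bait replicate 2 or 3, with values down to 0.24. miR-24-3p had 0.32 (adjusted p = 0.0340, SE = 0.12), and its call was lost in each of the 9 fits that left out 1 library, with values from 0.14 to 0.32. Without a filter on low counts both calls were also lost (0.19 and 0.07). With library totals both were higher than the input, by 1.01 and 0.89.

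miR-27a-3p and miR-27b-3p were lower than the input, with log2 fold changes of -0.57 (edgeR adjusted p = 0.00812, SE = 0.16) and -0.86 (adjusted p = 6.69e-04, SE = 0.15). With library totals neither passed the threshold, and miR-27a-3p stood at 0.00 with no remaining direction (adjusted p of 0.990). miR-23b-3p had a log2 fold change of -0.88 (adjusted p = 0.0631, SE = 0.38), and of -0.31 with library totals (adjusted p of 0.472). Its adjusted p fell to 0.00189 without MS2 control replicate 1, to 0.0360 without MS2 control replicate 3 and to 0.0140 without PD-L1 bait replicate 1, each with a negative value, and the call was gained in 8 of all 17 alternatives.

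The 5p arms departed further from the input. miR-24-2-5p and miR-27a-5p kept their side of the threshold with TMM, DESeq2's size factors and library totals. miR-24-2-5p was 1.02 ± 0.21 higher on the log2 scale (SE, with an edgeR adjusted p of 0.00142). miR-23a-5p and miR-27b-5p passed the filter through the trapped libraries, where they are high. miR-23a-5p had a fitted log2 fold change of 2.59 (SE = 0.33). It rested on 57 counts against 31, a ratio of 5.83 after scaling with a 95% counting interval from 3.70 to 9.34. miR-27b-5p rested on 53 counts against 6, a ratio of 28 after scaling with a 95% counting interval from 12 to 79.7. Its fitted log2 fold change of 4.78 dropped to 4.16 without PD-L1 bait replicate 2. miR-27a-5p was lower, at -2.38 (adjusted p = 4.23e-05, SE = 0.28), the 35th lowest of the 408.

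Ratios between 2 miRNAs of one library do not depend on how libraries are scaled. For 12 ratios, the log2 ratio of counts (plus 0.5) was compared over the 3 groups by an exact permutation test on the 9 libraries, which can give no p below 0.00357, and p-values were adjusted over the 12. Of the 12 ratios, 11 passed the threshold. The ratios share members and libraries, so they are not independent, and they were chosen with earlier results of these data known. How many ratios of other miRNA pairs would pass was not tested, so the count does not set these clusters apart. Between any pair of groups, 3 against 3 libraries cannot give an exact p below 0.1, so these are described by whether the libraries overlapped.

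Within the miR-23a cluster, miR-23a-3p and miR-27a-3p carry seeds that differ in 1 base. Their log2 ratio was -1.32, -1.10 and -1.25 in the input, -5.51, -5.90 and -5.79 in the MS2 control, and -0.62, -0.17 and 0.20 on the PD-L1 bait. The 3 groups did not overlap (exact permutation p of 0.00357, adjusted p of 0.00857). In linear terms, miR-23a-3p stood at 0.429 of miR-27a-3p in the lysate, 0.0188 in the MS2 control and 0.875 with the 3'UTR bait. The change between the baits was 46.6-fold.

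The ratio of miR-23a-3p to miR-24-3p behaved differently. Its mean log2 value was 0.25 ± 0.12 (SD, n = 3) in the input, -4.02 ± 0.06 in the MS2 control and 0.37 ± 0.23 on the PD-L1 bait (exact permutation p of 0.0143, adjusted p of 0.0190). The PD-L1 bait libraries overlapped the input libraries here, with a difference of 0.12 between their means. miR-27a-3p over miR-24-3p was 1.47 ± 0.04 in the input, 1.72 ± 0.18 in the MS2 control and 0.56 ± 0.37 on the PD-L1 bait (exact permutation p of 0.00357, adjusted p of 0.00857), with no overlap between groups.

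In the miR-23b cluster, too, the miR-23 seed was lowest beside the miR-27 seed in the MS2 control. miR-23b-3p over miR-27b-3p was -2.95 ± 0.07 (SD, n = 3) in the input, -5.12 ± 0.92 in the MS2 control and -3.02 ± 0.27 on the PD-L1 bait (exact permutation p of 0.025, adjusted p of 0.030). The 3'UTR libraries overlapped the input and not the MS2 control. miR-23b-3p over miR-24-3p changed by 2.52 between the baits, and by 1.86 without MS2 control replicate 1, and its difference from the input to the MS2 control of -3.76 became -3.10 without that library. miR-27b-3p over miR-24-3p was -0.34 ± 0.15 in the input and lower in both trapped groups, at -1.93 ± 0.27 and -1.52 ± 0.26, which overlapped each other (exact permutation p of 0.00714, adjusted p of 0.0107).

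The split of reads between the miR-27 paralogs differed between the groups. It rests on base 19, and whether reads were assigned alike in all groups was not tested. miR-27a-3p over miR-27b-3p was 1.81 ± 0.14 (SD, n = 3) in the input, 3.65 ± 0.09 in the MS2 control and 2.08 ± 0.15 on the PD-L1 bait (exact permutation p of 0.00714, adjusted p of 0.0107). In reads, miR-27a-3p took 77.8% ± 1.61, 92.6% ± 0.426 and 80.8% ± 1.64 of the pair, so the MS2 control stood apart from the other groups. For miR-23a-3p over miR-23b-3p the 3-group test missed the threshold (exact permutation p of 0.0679, adjusted p of 0.0679), with 3.54 ± 0.03 in the input, 3.04 ± 1.19 in the MS2 control and 4.90 ± 0.47 on the PD-L1 bait. The spread in the MS2 control came from replicate 1, at 4.41 against 2.40 and 2.30, and without it the adjusted p was 0.00857. On the PD-L1 bait, miR-23a-3p made up 95.3% to 97.3% of the pair, above the 91.9% to 92.2% of the input.

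**Figure D3:**
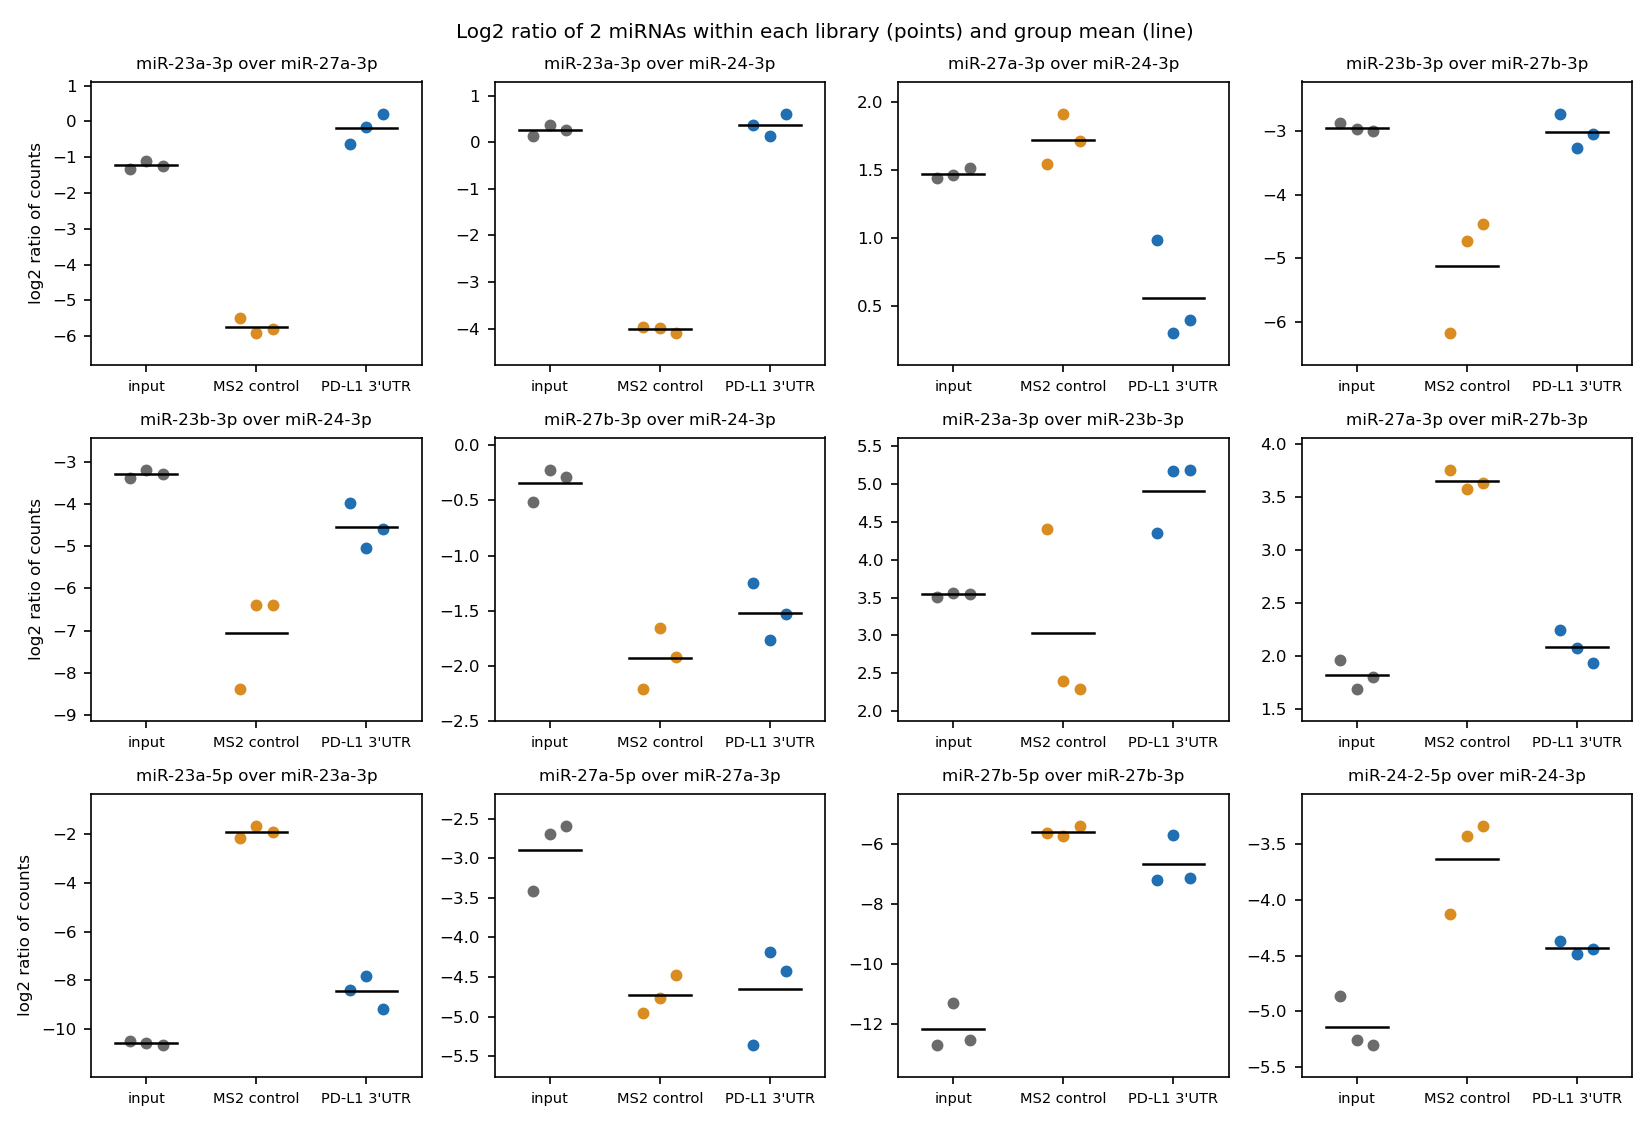
Log2 ratio of the counts of 2 miRNAs within each library for the 12 ratios, with 1 point per library and a line at the group mean. The ratio of miR-23a-3p to miR-27a-3p falls from about -1.22 in the input to -5.74 in the MS2 control and stands at -0.19 on the PD-L1 bait, and the ratio of miR-23a-5p to miR-23a-3p moves the opposite way.

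The balance of the 3 seeds shows the same change as shares. Among all 3p reads of the clusters, the miR-23 seed took 22.1% ± 1.08 (SD, n = 3) in the input, 1.53% ± 0.0734 in the MS2 control and 32.1% ± 4.32 on the PD-L1 bait. The miR-27 seed took 60.9% ± 0.724, 76.8% ± 2.28 and 43.9% ± 5.83, and miR-24 took 17.1% ± 0.658, 21.7% ± 2.21 and 24% ± 3.14. miR-23 and miR-27 shares did not overlap between any 2 groups, whereas those of miR-24 overlapped between the trapped groups.

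**Figure D4:**
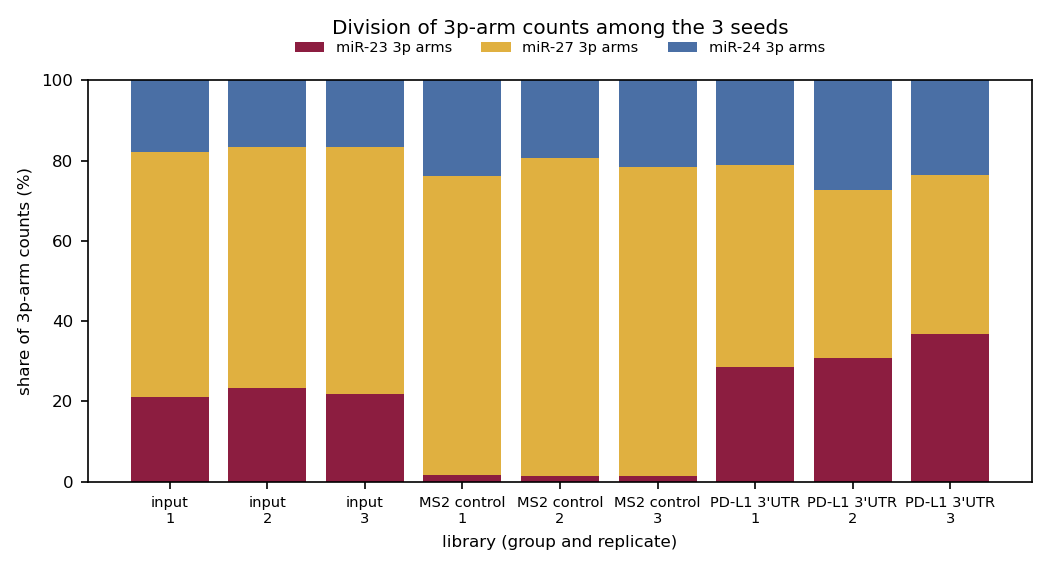
Share of the 3p-arm counts of both clusters that carried the miR-23, miR-27 or miR-24 seed, with 1 bar per library. The miR-23 share is 21.2% to 23.3% in the input, 1.45% to 1.59% in the MS2 control and 28.5% to 36.9% on the PD-L1 bait.

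The arms of the miR-23a hairpin parted in the MS2 control. The 5p arm made up 0.0622% ± 0.00293 (SD, n = 3) of the hairpin's reads in the input, 21.1% ± 2.84 in the MS2 control and 0.296% ± 0.131 on the PD-L1 bait. On the log2 scale, the ratio of 5p to 3p in the MS2 control exceeded that of the input by 8.67, and on the PD-L1 bait it differed from the MS2 control by -6.55. Of the 101 hairpin names with both arms tested, miR-23a had the largest such difference between the MS2 control and the input, where the median size was 1.62. Its 5p arm had only 10, 8 and 13 input counts and passed the filter through the trapped libraries, where it is high. The rank and the difference from the input are therefore a description only. Between the baits the difference of miR-23a ranked 5th in size, against a median size of 1.82. On the PD-L1 bait against the input it was 2.12, the 50th in size beside a median size of 2.09, and that of miR-27b, which rests on 6 input counts of its 5p arm, was 5.49.

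The arms of miR-27a and miR-27b did not follow each other. The 5p share of miR-27a dropped from 12.1% ± 3.05 (SD, n = 3) in the input to 3.66% ± 0.595 in the MS2 control and 4.01% ± 1.46 on the PD-L1 bait, and the trapped groups overlapped. Its log2 ratio of 5p to 3p counts gave an exact permutation p of 0.0321 (adjusted p of 0.0351). The 5p share of miR-27b went from 0.0194% ± 0.0132 to 2.01% ± 0.228 and 1.07% ± 0.684, with trapped groups that overlapped each other and not the input. Its 5p arm had 1, 3 and 2 input counts and passed the filter through the trapped libraries, where it is high. This change is therefore a description only. The share of miR-24-2-5p in its sum with miR-24-3p was 2.78% ± 0.468, 7.63% ± 1.94 and 4.42% ± 0.183, with no overlap between groups. Since miR-24-3p stems from both clusters, this share is not that of 1 hairpin. The log2 ratio of miR-24-2-5p to miR-24-3p gave an exact permutation p of 0.00357 (adjusted p of 0.00857).

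Other miRNAs of the same hairpins or the same seeds were few in these libraries. miR-23b-5p and miR-24-1-5p, the remaining 5p arms, did not pass the filter, with at most 10 counts in any library. miR-23c, another carrier of the miR-23 seed, had at most 3 counts, and miR-9985, which shares its first 15 bases with miR-27a-3p, had at most 5. Only miR-128-3p, whose first 7 bases equal the miR-27 seed so that its own seed is shifted by 1 base, was abundant. It is printed beside the miR-27 arms for this shift.
hsa-miR-128-3p: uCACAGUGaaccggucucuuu

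miR-128-3p stood at 2109 ± 366 CPM (SD, n = 3) before trapping, at 1965 ± 291 CPM in the MS2 control and at 2299 ± 613 CPM on the PD-L1 bait. Its log2 fold changes were -0.10 ± 0.21 (SE) in the MS2 control against the input, 0.23 ± 0.21 on the PD-L1 bait against the MS2 control and 0.13 ± 0.21 on the PD-L1 bait against the input, none past the threshold (adjusted p from 0.372 to 0.671).

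Across the 9 libraries, the pattern of each leading 3p arm was compared with 330 other miRNAs of at least 10 CPM by the root mean square difference of centred log2 CPM, where 0 means the same pattern. Closest to miR-23a-3p were miR-20a-3p (0.44), miR-15b-5p (0.59) and miR-148b-3p (0.61), against a median of 2.17. These 3 were picked as the smallest of the 330 distances. The paralog miR-23b-3p lay 0.99 from miR-23a-3p, and the cluster neighbours miR-24-3p and miR-27a-3p lay 2.04 and 2.42 from it. miR-27a-3p was closest to miR-1180-3p (0.12), miR-574-3p (0.26) and miR-454-5p (0.28), with a median of 0.99, and miR-24-3p to miR-30c-5p (0.15), miR-30d-5p (0.16) and miR-7706 (0.17), with a median of 1.01. miR-24-3p and miR-27a-3p lay 0.53 apart, while miR-23a-3p lay 3.65 from the 5p arm of its own hairpin.

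Letters complementary to the 3 seeds were sought on the coding strand of CD274, which encodes PD-L1, in its 3'UTR. The longest annotated 3'UTR, of transcript CD274-201, spans 2704 bases at chr9:5467863-5470566 (GENCODE, GRCh37), and the extent of the bait within it was not analysed here. It holds no match of 7 bases for miR-23 (AATGTGA or ATGTGAA), miR-27 (ACTGTGA or CTGTGAA) or miR-24 (CTGAGCC or TGAGCCA). In windows of the first 2704 bases of 4555 3'UTRs at least as long, that of CD274 included, 29.1%, 25.6% and 22.6% hold the first of each pair, and 30.6%, 30.8% and 38.4% the second. Matches of 6 bases to seed positions 2 to 7 occur in the CD274 3'UTR at 2 places for miR-23 (ATGTGA), 2 for miR-27 (CTGTGA) and none for miR-24 (TGAGCC), motifs held by 63.1%, 69.0% and 62.8% of the same windows. These 4 places are printed with the match in capitals.
miR-23, chr9:5468352-5468357: ttcttgtcATGTGAgtgtggtt
miR-23, chr9:5468923-5468928: atctacagATGTGAgcaagaca
miR-27, chr9:5468111-5468116: atcgacgcCTGTGAcagggaga
miR-27, chr9:5468334-5468339: ttttgagtCTGTGAggtcttct

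A match of letters is a description and not a binding site.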

How the data were processed

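Small RNA of ES-2 cells was counted in 9 libraries, 3 per group, grouped by the sample titles. Per the labels and the submitters' processing notes, the authors used cutadapt 1.18, Bowtie2 2.2.6 with hg38 and featureCounts 1.6.3 to trim, align and count reads, and the deposited values are raw counts per mature miRNA locus. Handling of reads with several loci was not given in the sources used here. Loci of one name were summed. edgeR 4.0.16 (R 4.3.3) kept 408 miRNAs by filterByExpr, which held at least 99.7% of each library's counts, scaled them by TMM and fitted 3 group means to all 9 libraries. The SE is the log2 fold change divided by the root of the F statistic. Ratios were tested with scripts in Python (numpy 2.4.6). The procedures were tested on simulated data. Members, lists, ratios and tests were chosen with earlier results of these data known, and the ranking of hairpin arms was added later. All 9 members were named, and other miRNAs follow a rule of shared hairpin, shared or shifted seed, or closest pattern (3 each). Alternatives were scaling by library totals or by DESeq2's size factors, the test of DESeq2 1.42.0, a minimum mean of 10 CPM or no filter, the compared groups alone, separate loci, a replicate block, another pseudocount and leaving out each library. All pairs of replicates differed beyond sampling noise by a chi-square test, with a statistic per degree of freedom of at least 8.60. In each group replicate 1 stood apart: pairs with it had 93.8 to 156, and pairs of replicates 2 and 3 had 8.60 to 30.5. Some miRNAs were far higher in PD-L1 bait replicate 1 than in replicates 2 and 3. miR-148a-3p had 20762, 476 and 181 CPM there, and miR-143-3p had 9124, 121 and 39.9 CPM. The cause was not tested. No column of other samples was present.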

Additional observations from a re-analysis of the deposited data

How the results depend on the processing

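Of 456 member fold changes computed again under the alternatives, 412 kept their direction and their side of the threshold, 28 lost it, 15 gained it and 1 turned. The last was miR-27a-3p on the PD-L1 bait against the input, at 0.0019 with library totals, a scaling that raised the median of all miRNAs. With library totals, 1 member was lower than the input on the PD-L1 bait instead of 3, 5 instead of 3 exceeded the input in the MS2 control, and the miR-27 sum had log2 fold changes of -0.057 and 0.76 over the input, on the PD-L1 bait and the MS2 control. Without a filter, 3 members were higher than the input on the PD-L1 bait instead of 5, and 201 of all miRNAs were lower, among more miRNAs tested. Leaving out 1 library at a time, the members lower than the MS2 control numbered 2 to 4 and those higher than the input 3 to 4 on the PD-L1 bait, and the miR-23 sum against the input ranged from 0.16 to 0.43, past the threshold in 1 of the 9 fits. The ratios past the threshold numbered 11 to 12. The PD-L1 bait and the MS2 control differed in the ratio of miR-27a-5p to miR-27a-3p by 0.08, and by -0.03, -0.16 and -0.04 without MS2 control replicate 1, PD-L1 bait replicate 2 and PD-L1 bait replicate 3. The ratio of miR-23b-3p to miR-27b-3p differed by -0.068 between the PD-L1 bait and the input, by 0.057 without PD-L1 bait replicate 2, and by -0.21 at the lowest with 1 library left out. The cause was not tested. Deviations from the group mean correlated at -0.20 to 0.12 between libraries of the same replicate number, and at 0.07 to 0.12 between the trapped groups. Libraries of different numbers were not compared in this way, so whether the numbers pair them was not tested. With the replicate number as a block, 4 members were higher than the input on the PD-L1 bait, as miR-24-3p missed the threshold at 0.32, and no other member call changed. The depth of the PD-L1 bait libraries limits miR-27b-5p and miR-23a-5p, with 15 to 23 counts per library.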
